A study of Mus musculus with 6 samples.

Results

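Cells of mouse dorsal skin chosen as resident macrophages by Pf4, C1q or Mrc1 transcripts were examined in 6 droplet single-cell RNA libraries. Cells were chosen by raw UMI counts (unique molecular identifiers, 1 per captured transcript): at least 5 UMIs summed over Pf4, C1qa, C1qb, C1qc and Mrc1, fewer than 5 of Il1b, fewer than 2 of Arg1, and 0 of Cd207, Csf3r and the Cd3 genes. This rule took 271 of 34834 kept cells. The libraries came from wild-type male C57BL/6 mice aged 8, 26 or 52 weeks, with 1 untreated and 1 treated library per age and 3 animals pooled in each. Skin of the control libraries was dissociated at once, while treated skin was first exposed outside the body to PBMC-sec, the secretome of gamma-irradiated mononuclear blood cells. Dose and duration are not given in the sources used here. No control skin was held without the secretome, so treatment and holding cannot be told apart. Lists of 6 values below go through the ages from 8 to 52 weeks and give, for each age, the untreated library before the treated one.

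Resident macrophages of the dermis lie around vessels and nerves, clear dying cells and debris, and call in other leukocytes through chemokines. C1q, whose chains are encoded by C1qa, C1qb and C1qc, starts the classical complement pathway and tags material for uptake. Mrc1 is the mannose receptor, Pf4 (Cxcl4) is a chemokine made by platelets and by some tissue macrophages, and Ccl8 is a chemokine typical of dermal macrophages in mice.

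The label was checked against genes that the rule did not read. Tyrobp, a signalling adaptor of myeloid cells, was found in 22 of 40, 13 of 23, 17 of 52, 11 of 29, 44 of 73 and 30 of 54 members, against 2.41 to 11.5% of all other kept cells. Ccl8 was carried by 23, 12, 41, 16, 45 and 22 members, or 57.5, 52.2, 78.8, 55.2, 61.6 and 40.7%. Cells gated as keratinocytes (at least 5 UMIs of Krt5 and Krt14, and none of Ptprc, Tyrobp or Fcer1g) served as a measure of free RNA, and 2.20 to 5.38% of them had a Ccl8 UMI. These keratinocytes were the deeper cells in every library, with medians of 1236, 3810, 3197.5, 5607, 4693.5 and 7219 UMIs. Folr2, a folate receptor of resident macrophages, was carried by 10, 6, 18, 8, 26 and 23 members and by 3, 1, 0, 0, 2 and 0 keratinocytes. Several other genes of the resident class were rare or missing. Lyve1, a hyaluronan receptor of perivascular macrophages, had 0 UMIs in all 271 members, and Timd4, a receptor for dying cells, had 1. Cd163, a haemoglobin scavenger receptor, had 0, 1, 8, 3, 2 and 1 UMIs.

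Not all members were macrophages by the weight of their RNA. Members were called macrophage-dominated if they held at least 2 UMIs over 18 myeloid lineage genes and more of these than of keratinocyte and fibroblast markers together, a split made after the data were seen. The split reads those marker genes, among them Lyz2, Dcn, Krt5 and Krt14, so their levels in either set are fixed by it in part. It kept 28, 21, 41, 23, 57 and 41 members, 211 in all. The most abundant of the tested lineage genes were Cebpb, Fcer1g, Ctss and Lyz2. How far each of the 18 is restricted to myeloid cells was not tested. The remaining members held 51.9, 8.46, 21.7, 28.8, 23.6 and 49.7% of the members' UMIs, so they weigh more in summed counts than their number would give. Within them, keratinocyte markers summed to between 2170 and 14212 CPM (UMIs of the summed cells scaled to a common total) and fibroblast markers to between 0 and 12751 CPM. In the macrophage-dominated members the same sums were 506 to 3802 CPM and 38.2 to 199 CPM. Melanocyte markers had 0 UMIs in all libraries, and T or innate lymphoid markers had UMIs in the 52-week libraries, 2 untreated and 26 treated. Gene results below are given for all members and, where tested, for the macrophage-dominated ones.

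**Figure D1:**
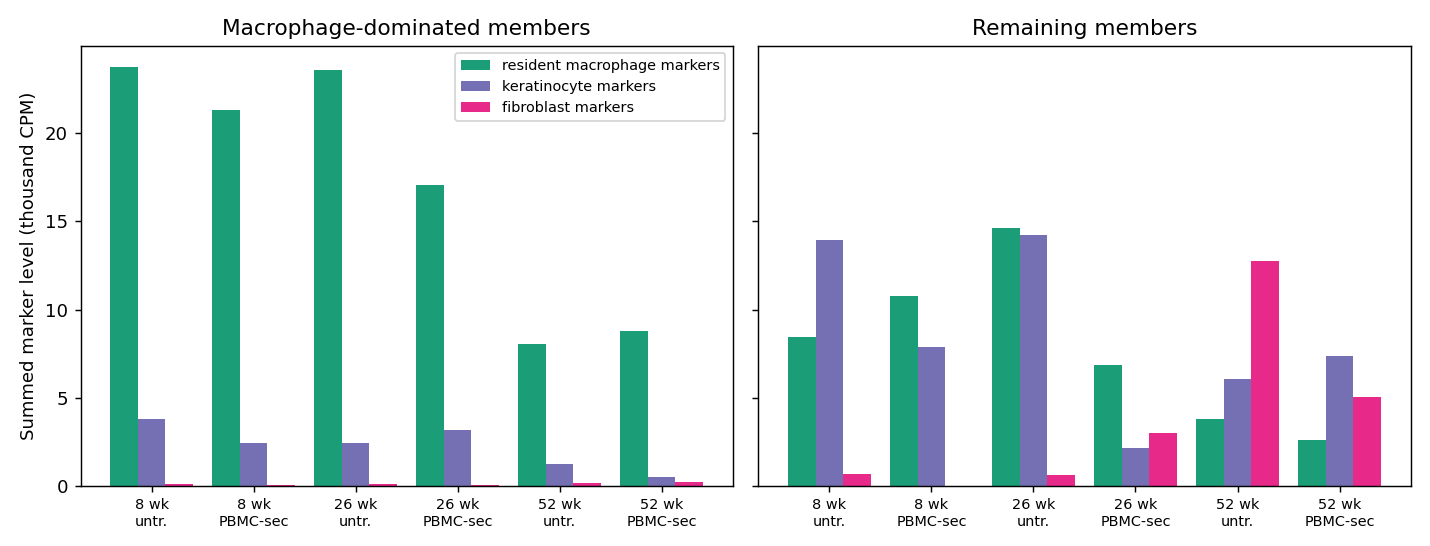
Summed level, in units of 1000 CPM, of the given resident macrophage markers, the keratinocyte markers and the fibroblast markers in each library, for macrophage-dominated members (left) and the remaining members (right). Resident markers exceed both other classes in all 6 libraries on the left. This order is fixed in part by the choice of cells. The rule reads Pf4, the C1q genes and Mrc1, and the split reads the keratinocyte and fibroblast markers. On the right fibroblast markers lead in the 52-week untreated library and keratinocyte markers in the 8-week untreated and 52-week PBMC-sec libraries.

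Depth differed between ages and, over all kept cells, with treatment. The matrices held between 4083 and 9520 barcodes, of which 3686 to 9237 were kept. Kept cells had medians of 1128, 2613, 2211, 3493.5, 3064 and 4804 UMIs, higher in the treated library at each age. Members had medians of 1056.5, 917, 1011.5, 934, 2459 and 2894 UMIs and summed to 84203, 28614, 70433, 43277, 246886 and 310317 UMIs. The 52-week members were the deepest. No member barcode was shared between libraries. Scrublet's automatic threshold marked 1 barcode in all 6 libraries, so doublets were handled by an alternative that removed the highest scores, 0, 2, 4, 3, 4 and 10 of them members. Of the 8-week untreated members, 8 lay in clusters of near-identical barcodes, which held 48.6% of that library's kept cells, and no member of the other libraries did.

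Members just inside the lower bound, with a sum of exactly 5, numbered 4, 2, 6, 2, 9 and 1, and cells just outside, with a sum of 4, numbered 11, 5, 3, 4, 9 and 6. Cells at 4 Il1b UMIs, just inside, numbered 2, 2, 2, 2, 1 and 2, and those at 5 numbered 0, 2, 2, 1, 2 and 4. At 1 Arg1 UMI there were 7, 8, 5, 5, 23 and 10 members, and at 2, just outside, 1, 3, 3, 1, 10 and 6 cells. The members at 1 Arg1 UMI in 52-week untreated skin were the largest of these margins. Cells that met the rest of the rule, at any level of Il1b, but had at least 2 Arg1 UMIs numbered 10, 17, 4, 12, 92 and 105, so at 52 weeks they outnumbered the members. Arg1 is arginase, a gene of alternatively activated macrophages.

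The first comparison was how frequent the members were. They made up 0.433% of kept cells in 8-week untreated skin (exact binomial 95% interval 0.310 to 0.589) and 0.421% after PBMC-sec (0.267 to 0.632). At 26 weeks they made up 0.932% (0.697 to 1.22) untreated and 0.490% (0.328 to 0.702) treated. At 52 weeks the shares were 1.98% (1.56 to 2.48) and 1.09% (0.821 to 1.42). The intervals cover counting error only, and there was 1 library per condition. The 52-week share was 4.57 times the 8-week share in untreated skin (3.12 to 6.71) and 2.59 times in treated skin (1.59 to 4.21). In the macrophage-dominated members these ratios were 5.10 and 2.15, and without near-identical barcodes the untreated ratio was 3.02. The rule reads raw UMIs. Its lower bound admits deeper cells more readily, while its limits on Il1b, Arg1 and the other genes exclude them more readily. After every cell was thinned to 500 UMIs the ratios were 4.71 and 2.17, with 33, 35, 46, 24, 62 and 69 cells passing the rule. These exceeded the 23 and 54 members of the 8-week and 52-week PBMC-sec libraries and were fewer than the members elsewhere.

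The share with PBMC-sec stood to that without as log2 -0.04, -0.93 and -0.86 at 8, 26 and 52 weeks, a mean of -0.61 ± 0.49 (SD, n = 3 ages; exact two-sided sign-flip permutation p = 0.25, the smallest that 3 ages allow). Cells that met the rest of the rule but held at least 5 UMIs of Il1b, a pro-inflammatory cytokine, numbered 11, 34, 14, 19, 18 and 44, more in the treated library at every age. Kept cells were also deeper in the treated libraries, and the part of depth in these numbers was not tested. With no limit on Il1b the shares were 0.552, 1.04, 1.18, 0.810, 2.47 and 1.98%, and the mean log2 difference was 0.02 ± 0.79 (SD, n = 3 ages, exact sign-flip permutation p = 1). After thinning it was -0.15 ± 0.94 (SD, n = 3 ages, exact sign-flip permutation p = 0.75). Lifting the limit turned the 8-week log2 difference to 0.92, while the 26-week and 52-week ones kept their sign, with values of -0.55 and -0.32.

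**Figure D2:**
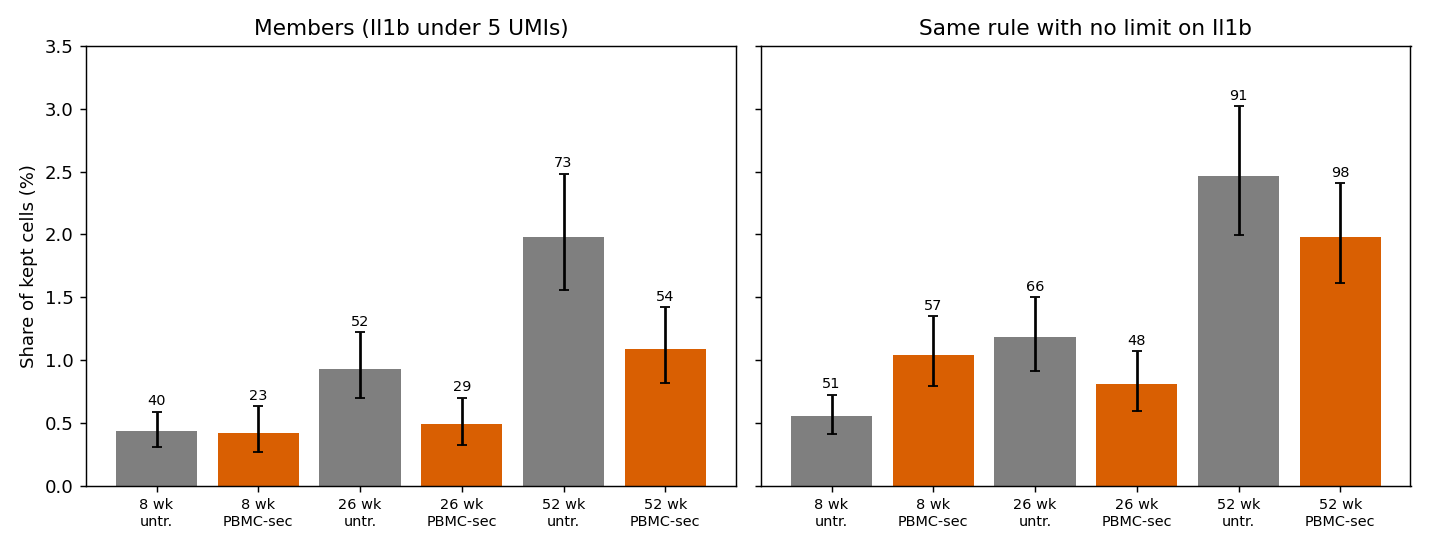
Share of kept cells in percent for each library, grey for untreated and orange for PBMC-sec, with exact binomial 95% intervals and the number of cells above each bar, under the rule (left) and with no limit on Il1b (right). On the left the treated bar is lower at 26 and 52 weeks, and on the right it is higher at 8 weeks (1.04 against 0.552%) and lower at 26 and 52 weeks.

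The genes that chose the cells are given as a description. Pf4 supplied between 70.2 and 91.1% of the UMIs in the 5-gene sum, and its level was 8812, 14329, 11699, 9266, 3747 and 2945 CPM. The 52-week members were lowest. C1qb stood at 1093, 769, 1178, 254, 806 and 548 CPM, and Mrc1 at 356, 734, 596, 231, 154 and 180 CPM. C1q was lowest in the 26-week PBMC-sec library, where 13 of 29 members had a C1q UMI and 14 qualified through Pf4 alone. In the other libraries 32 of 40, 17 of 23, 44 of 52, 62 of 73 and 32 of 54 members had a C1q UMI. In the same order, 4, 3, 5, 10 and 20 members of these libraries qualified through Pf4 alone. Il1b, capped by the rule, was at 273, 979, 369, 786, 85.1 and 119 CPM.

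Of 25 genes listed for resident and perivascular macrophages 8 passed the filter on low counts. None of the 8 passed the test for PBMC-sec (edgeR's quasi-likelihood test, Benjamini-Hochberg adjusted p under 0.05), and their median log2 change was 0.03 against 0.00 over all genes tested. Ccl8 was at 4394, 3530, 6943, 3951, 1721 and 1592 CPM. Its PBMC-sec change was log2 -0.31 ± 0.35 (SE, adjusted p = 0.916), with the groups overlapping. Wfdc17, a secreted protease inhibitor family member of macrophages, changed by -0.82 ± 0.41 (adjusted p = 0.486), Dab2, an endocytic adaptor, by 0.09 ± 0.39 and Folr2 by 0.08 ± 0.40. Between 52 and 8 weeks none of the 8 passed either. Ccl8 differed by -1.25 ± 0.44 (adjusted p = 0.135), and by 0.40 (adjusted p = 0.744) when cells were thinned to equal depth.

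Cd74, the invariant chain of MHC class II, was found in 20 of 40, 13 of 23, 33 of 52, 18 of 29, 22 of 73 and 14 of 54 members, against 5.71 to 14.3% of the gated keratinocytes. A single cell held 350 of the 700 Cd74 UMIs in the 8-week untreated library and 264 of the 320 in the 52-week PBMC-sec library. H2-Ab1, a class II beta chain, was likewise uneven, with 101 of 188 and 89 of 102 UMIs in 1 cell of these libraries. Mki67, a marker of dividing cells, had 4, 1, 0, 0, 2 and 8 UMIs, in 1, 1, 0, 0, 2 and 6 members.

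Akr1b3 and Fxyd2, genes of osmotic and ion balance, rose with PBMC-sec in all members and in the macrophage-dominated ones. Akr1b3 is aldose reductase, which turns glucose into the osmolyte sorbitol (chr6:34302434-34317478, minus strand, GRCm38). It counted 5, 74, 9, 51, 18 and 186 UMIs, or 59.4, 2586, 128, 1178, 72.9 and 599 CPM. Every treated library was above every untreated one. The change was log2 3.87 ± 0.51 (SE; edgeR's quasi-likelihood test, adjusted p = 1.23e-05), and 3.43 ± 0.43 (adjusted p = 0.0146) in the macrophage-dominated members. Fxyd2 is the gamma subunit that regulates the sodium-potassium pump (chr9:45399669-45410278, plus strand, GRCm38). It counted 18, 61, 18, 48, 12 and 93 UMIs, or 214, 2132, 256, 1109, 48.6 and 300 CPM. The treated library was the higher one at each age and the groups did not overlap. Its change was log2 2.78 ± 0.45 (adjusted p = 0.000307), and 2.80 ± 0.32 (adjusted p = 0.0146) in the macrophage-dominated members.

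More cells carried a transcript in treated skin, among members and among keratinocytes. Akr1b3 was found in 12.5, 43.5, 13.5, 51.7, 19.2 and 51.9% of members and in 6.44, 49.0, 11.6, 52.4, 13.8 and 48.0% of the deeper keratinocytes. After thinning to 500 UMIs it was in 5.0, 34.8, 9.62, 37.9, 2.74 and 20.4% of members and 1.45, 13.9, 1.51, 10.8, 0.922 and 10.2% of keratinocytes. The part of free RNA in the Akr1b3 rise was not tested. Fxyd2 was found in 17.5, 56.5, 23.1, 75.9, 10.96 and 44.4% of members, against 0.235, 1.42, 0.0407, 1.04, 0.384 and 2.26% of the deeper keratinocytes. Thinned, it was in 10.0, 43.5, 11.5, 51.7, 5.48 and 24.1% of members. Of the 17 osmotic response genes listed, 7 were tested in all members, 2 were called higher and the median was 0.72. Over all genes tested 2.09% were called higher and the median was 0.00. Atp1b3, a sodium-potassium pump subunit, changed by 0.42 ± 0.41 (adjusted p = 0.884) and Slc38a2, an amino acid transporter, by 0.23 ± 0.43 (adjusted p = 0.986).

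**Figure D3:**
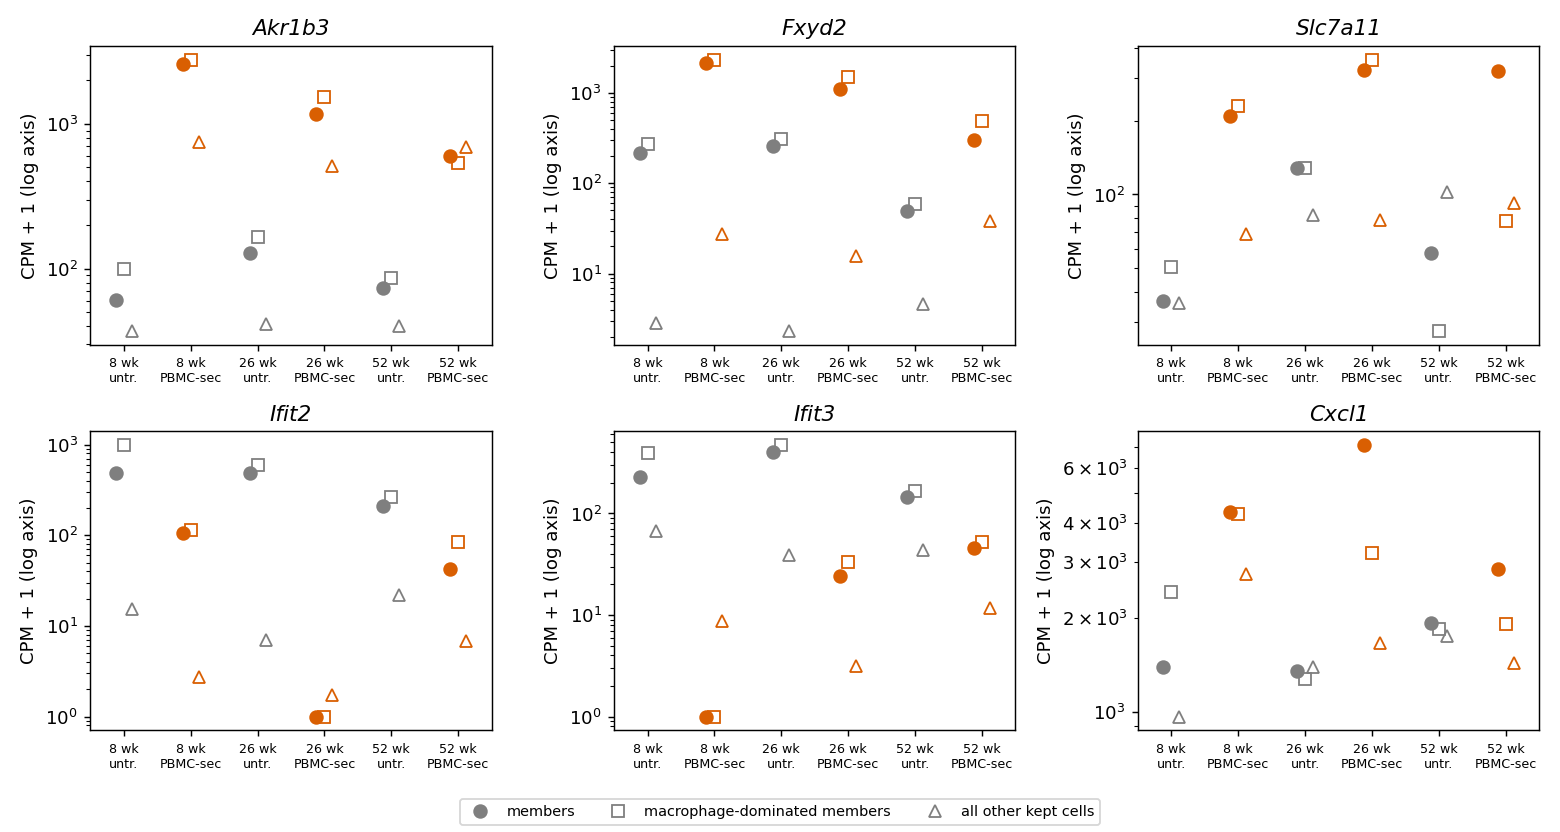
Level of 6 genes in each library as CPM + 1 on a log axis, grey for untreated and orange for PBMC-sec, in all members (filled circles), macrophage-dominated members (squares) and all other kept cells (triangles). Akr1b3 and Fxyd2 are higher in the treated library of every age in all 3 sets of cells, Ifit2 and Ifit3 are lower, and Cxcl1 is higher in the treated library of every age in all members, at 7094 CPM in the 26-week PBMC-sec library.

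In all, 22 of 1055 genes tested were called higher with PBMC-sec (2.09%) and 10 lower (0.948%), with the residual spread taken from how the treatment difference varied between 3 ages (2 residual degrees of freedom). In the macrophage-dominated members 2 of 656 were called higher (0.305%) and 0 lower (0%; 73 genes had an unadjusted p under 0.05), and these 2 were Akr1b3 and Fxyd2. By DESeq2 14 genes were called in all members, 13 of them among the 32. Without the 8-week, 26-week or 52-week pair of libraries 42, 10 and 22 genes were called, of which 14, 5 and 13 were among the 32. Of the 24 called genes that the naming rule took by size or p, Akr1b3, Fxyd2 and 2610528A11Rik were called whichever pair was left out. Slc7a11, Pgd, Csf3, Pdpn, Zfp36l1, Akr1b8 and Gstp1 were not called, or were too low to test, in any of these 3 fits. The others lost the call in 1 or 2 of them. The p-values rest on 1 pooled library per condition and measure neither animals nor replicate libraries.

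Further genes rose in all members with at least 1 UMI in every library and a level in all other cells at most 5 times that in members. Of the 22 called, 16 were of this kind. Slc7a11, the cystine importer, was at 35.6, 210, 128, 323, 56.7 and 319 CPM, a change of 2.21 ± 0.47 (adjusted p = 0.00698). All treated values lay above all untreated ones, but of its 99 UMIs in the 52-week PBMC-sec library 12 came from macrophage-dominated members, where it was too low to test. Its call was lost without the 8-week, 26-week or 52-week pair (adjusted p = 0.0603, 0.0601 and 0.248), by DESeq2 (0.0897), with no limit on Il1b (0.0765) and without cells of 10000 UMIs or more (0.168). Pgd, of the pentose phosphate pathway, rose by 1.67 ± 0.47 (adjusted p = 0.0395), a call also lost by DESeq2 (0.403) and with no limit on Il1b (0.259). Lyz2, lysozyme of myeloid cells, was at 131, 2167, 241, 1502, 583 and 474 CPM. It was far higher in treated skin at 8 and 26 weeks and slightly lower at 52 weeks, and the fitted change was 2.11 ± 0.58 (adjusted p = 0.0365), or 2.07 ± 0.64 (adjusted p = 0.342) in the macrophage-dominated members, whose choice reads Lyz2. Zfp36l1, an RNA-decay factor, rose by 1.47 ± 0.39 (adjusted p = 0.0269) and stood at 1.74 ± 0.33 (adjusted p = 0.137) in the subset. The linker histones H1f0 and Hist1h1c (2.10 and 1.80) and the aldo-keto reductase Akr1b8 (1.46) also passed in all members, with 1.17, 1.18 and 1.34 and no call in the subset. Pdpn, podoplanin, rose by 1.56 ± 0.41 (adjusted p = 0.0269) and Cyb5a, cytochrome b5, by 1.502 ± 0.39 (adjusted p = 0.0269), each without overlap between the groups. In the subset they stood at 0.76 ± 0.32 (adjusted p = 0.432) and 1.26 ± 0.32 (adjusted p = 0.211).

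NRF2 is a transcription factor that switches on antioxidant genes. Of 21 such genes listed, 17 were tested, Slc7a11 and Pgd rose, 15 had a positive change and the median was 0.72 against 0.00 over all genes. In the macrophage-dominated members 14 were tested, 0 were called and the median was 0.31 against -0.05. The most abundant members were not called. Prdx1, a peroxidase, changed by 0.86 ± 0.35 (adjusted p = 0.323) and Hmox1, haem oxygenase, by 0.72 ± 0.37 (adjusted p = 0.494).

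Cxcl1, a neutrophil attractant, Csf3, Mmp13 and Ptgs2 rose in all members and were not called in the macrophage-dominated ones. Cxcl1 was at 1390, 4334, 1349, 7094, 1916 and 2849 CPM, a rise of 1.62 ± 0.39 (adjusted p = 0.0169). Csf3, the granulocyte growth factor, rose by 1.67 ± 0.45 (adjusted p = 0.0308), Mmp13, a collagenase, by 1.75 ± 0.39 (adjusted p = 0.00719), and Ptgs2, prostaglandin synthase, by 1.42 ± 0.37 (adjusted p = 0.0269). Among macrophage-dominated members they stood at 0.72, 1.39, 0.91 and 0.54, with adjusted p between 0.397 and 0.688. Of 624 Mmp13 UMIs in the 52-week PBMC-sec library, 83 came from macrophage-dominated members. Fibroblast markers summed to 404, 34.9, 213, 901, 3147 and 2604 CPM in all members, higher at 26 weeks and lower at 8 and 52 weeks with treatment. Their part in these rises was not tested. Cxcl5, another neutrophil attractant, was at 273, 594, 1335, 3489, 1041 and 3103 CPM, a rise of 1.49 ± 0.39 (adjusted p = 0.0269) with the groups overlapping, and stood at 0.83 ± 0.43 (adjusted p = 0.53) in the subset. Of 27 inflammatory genes 25 were tested, and Cxcl1 and Ptgs2 were the ones called. The median of the list was 0.27 against 0.00 over all genes tested, of which 2.09% were called higher. The most abundant genes of the list, Cxcl2, Ccl4, Ccl2 and Ccl7, changed by 0.57, -0.21, 0.21 and 0.28, none called.

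Trf, Il1rl1, Ptges and Gstp1 were also called higher, but each lacked a UMI in a library or was far more abundant in other cells. Il1rl1, the interleukin-33 receptor, had 0, 0, 4, 8, 38 and 247 UMIs and 0, 0, 1, 2, 3 and 12 in that subset. Sprr2h, of the cornified envelope, named here after its values were seen, was another of this kind, with 14, 8, 9, 14, 23 and 109 UMIs. All 10 genes called lower also lacked a UMI in a library or were more than 5 times as high in other cells. They included the keratinocyte genes Lgals7 (926, 43, 274, 47, 314 and 191 UMIs), Krt6b (56, 9, 13, 3, 152 and 2) and Aqp3 (38, 2, 28, 1, 66 and 24), and 2610528A11Rik (115, 9, 27, 3, 47 and 3). Keratinocyte markers summed to 9073, 2901, 4998, 2865, 2357 and 3928 CPM in all members, lower with treatment at 8 and 26 weeks and higher at 52 weeks, and their part in these falls was not tested.

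Ifit2 and Ifit3, antiviral genes induced by type I interferon, fell with PBMC-sec. Ifit2, which binds viral RNA, counted 41, 3, 34, 0, 51 and 13 UMIs, or 487, 105, 483, 0, 207 and 41.9 CPM. Every untreated library was above every treated one. Its change was log2 -2.67 ± 0.53 (adjusted p = 0.00432), and -2.57 ± 0.54 (adjusted p = 0.137) in the macrophage-dominated members, which held 40, 33 and 50 of its UMIs in untreated skin. Ifit3 counted 19, 0, 28, 1, 36 and 14 UMIs and fell by 2.39 ± 0.57 on the log2 scale (adjusted p = 0.0145). Of 29 interferon genes 18 were tested, Ifit2 and Ifit3 were called lower, 17 had a negative change and the median was -0.87 against 0.00 over all genes. In the subset 15 were tested, 0 were called, 15 were negative and the median was -1.08 against -0.05. Isg15, the most abundant, was at 3195, 1608, 4444, 1294, 1649 and 1025 CPM, with an uncalled change of -1.04 ± 0.37 (adjusted p = 0.18). It was lower in the treated library at each age. Rsad2, an antiviral enzyme, changed by -0.47 ± 0.41 and Ifi27l2a by -1.24 ± 0.40, neither called.

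The promoters of Isg15 and Ifit3 are shown as those of the most abundant interferon gene and of a called one. They run from 250 bases before to 50 bases after the start (RefSeq, GRCm38.p6), 5′ to 3′ on the gene's strand, with matches to the interferon response element core, which is GAAA, any 2 bases and GAAA again, on either strand in capitals.
Isg15: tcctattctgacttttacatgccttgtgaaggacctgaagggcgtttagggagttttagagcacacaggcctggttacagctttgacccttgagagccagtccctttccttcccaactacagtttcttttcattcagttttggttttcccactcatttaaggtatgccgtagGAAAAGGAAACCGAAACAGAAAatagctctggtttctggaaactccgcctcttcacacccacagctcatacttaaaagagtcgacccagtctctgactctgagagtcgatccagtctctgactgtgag
Ifit3: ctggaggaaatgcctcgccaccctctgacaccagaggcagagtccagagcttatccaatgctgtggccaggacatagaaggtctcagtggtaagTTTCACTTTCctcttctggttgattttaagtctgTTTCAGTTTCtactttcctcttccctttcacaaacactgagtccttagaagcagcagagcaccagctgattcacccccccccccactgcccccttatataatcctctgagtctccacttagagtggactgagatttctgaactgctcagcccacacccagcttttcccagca
Isg15 (chr4:156200769-156201068, minus strand) held 3 overlapping matches and Ifit3 (chr19:34583279-34583578, plus strand) held 2. The promoter entries of Ifit2 held 0, which says only that these letters are not in those windows. The core was found in 3.44% of all 32851 promoters of this length. Of the 21 interferon genes that have a promoter entry, 11 held the core (52.4%), against 3.99% of 27025 genes. A match is a description of the sequence.

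The response to PBMC-sec was then compared with that of all other kept cells, by the interaction in 1 fit over both sets of cells. Of 1055 genes 1 was called (0.0948%), by edgeR's quasi-likelihood test. Without the 26-week or the 52-week pair of libraries 0 genes were called, and without the 8-week pair 4. Akr1b3 rose in the other cells by 4.28 ± 0.22 (adjusted p = 0.0023) and Fxyd2 by 3.81 ± 0.14 (adjusted p = 0.000657). The responses of members differed from these by -0.34 ± 0.47 (adjusted p = 0.826) and -0.92 ± 0.38 (adjusted p = 0.461). The levels differed by gene. Fxyd2 stood at 1.83, 26.7, 1.32, 14.6, 3.57 and 36.8 CPM in all other cells, below the members in every library, while Akr1b3 at 35.9, 745, 40.7, 507, 39.1 and 688 CPM exceeded them in the 52-week PBMC-sec library. Ifit2 changed in the other cells by log2 -2.32 ± 0.36 (adjusted p = 0.0205), and the difference in response was -0.56 ± 0.69 (adjusted p = 0.792). Among genes not called, the smallest p belonged to Perp, Zfp36l1, Slc7a11, Ly6d, Gpnmb, Krt16, Mmp13, 2610528A11Rik and Vim, with adjusted p from 0.115 to 0.127.

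Against the 140 cells with at least 5 Il1b UMIs that met the rest of the rule, 0 of 727 genes differed in response (0%; edgeR's quasi-likelihood test, 30 genes with an unadjusted p under 0.05, and 0 called by DESeq2). The smallest p belonged to Krt6b, Krtdap, Ly6d, Egr1 and Krt6a, with adjusted p from 0.319 to 0.457. Fxyd2 rose in the Il1b-high cells too, by 4.53 ± 0.59 (adjusted p = 0.0368), a difference in response of -1.66 ± 0.76 (adjusted p = 0.857).

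Age was compared as 52 against 8 weeks, with the treated and the untreated library of each age as its samples. These may share animals, so the p-values may rest on 1 pool per age. Ccl7, Ccl12 and Tnf, signals that recruit and activate leukocytes, fell. Ccl7, a monocyte attractant, was at 6223, 9820, 6588, 6817, 2098 and 1882 CPM. Both 52-week libraries lay below the other 4. Its change was log2 -1.99 ± 0.45 (edgeR's quasi-likelihood test, adjusted p = 0.00755), and -2.51 ± 0.26 (adjusted p = 0.00821) in the macrophage-dominated members. Ccl12 was at 1259, 1293, 923, 231, 304 and 122 CPM, a change of -2.76 ± 0.55 (adjusted p = 0.00265), and -2.70 ± 0.40 (adjusted p = 0.0324) in the subset. Tnf was at 1639, 2446, 2556, 924, 818 and 335 CPM and changed by -2.01 ± 0.52 (adjusted p = 0.0205), and by -1.94 ± 0.31 (adjusted p = 0.0324) in the subset. In Ccl12 and Tnf, the 26-week PBMC-sec library lay nearer to the 52-week libraries than to the younger ones. Without the 26-week pair, Ccl12 was still called (adjusted p = 0.00393), while Ccl7 (0.188) and Tnf (0.119) kept their direction and lost the call, as did Ifih1, Lgals7 and Cxcl5, described below (0.116, 0.111 and 0.0618).

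These falls were not the same in every setting. The 52-week members were the deepest, and Pf4 was itself lowest in them. Il1b, which the rule caps in raw UMIs and so more strictly in deeper cells, was lowest in them too. The part of depth, of the Pf4 level and of the Il1b cap in the falls was not tested. In cells thinned to 500 UMIs before the rule was applied, Ccl7 changed by -0.45 (adjusted p = 0.695), Ccl12 by -0.72 (adjusted p = 0.508) and Tnf by 0.09 (adjusted p = 0.926), the last in the opposite direction. With no limit on Il1b 0 of 1490 genes were called between the ages by the same edgeR test (145 with an unadjusted p under 0.05), and in thinned cells 1 of 311. Without cells of 10000 UMIs or more 1 gene was called, Ccl7, at -2.09 (adjusted p = 0.0121).

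**Figure D4:**
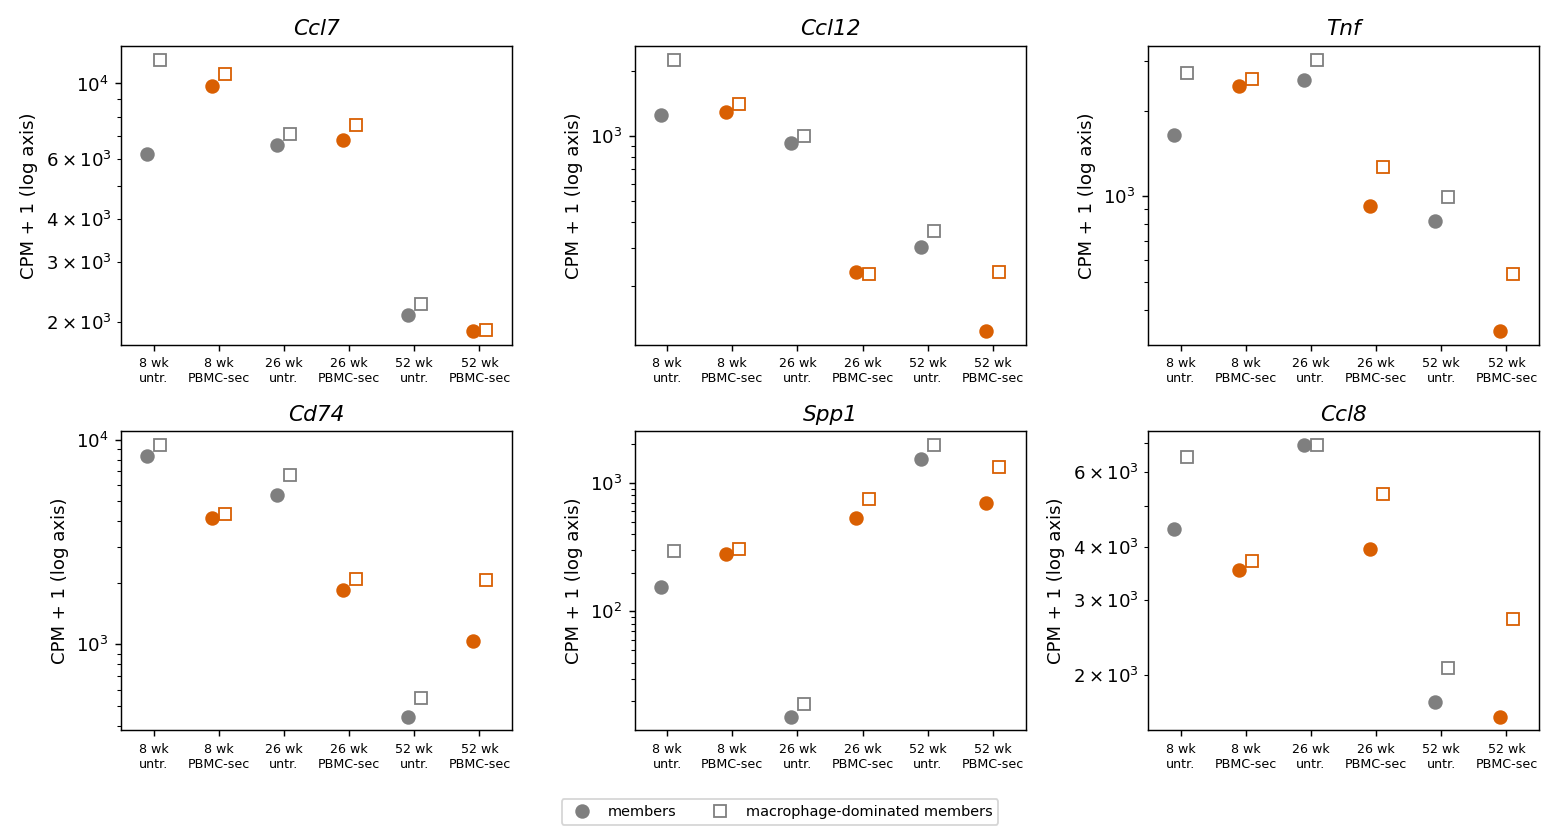
Level of 6 genes in each library as CPM + 1 on a log axis, grey for untreated and orange for PBMC-sec, in all members (filled circles) and macrophage-dominated members (squares). Ccl7 is lowest in both 52-week libraries (2098 and 1882 CPM in all members), Ccl12 and Tnf are lowest in the 52-week PBMC-sec library, and Spp1 is highest in the 52-week untreated one.

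In all members 11 of 1055 genes were called higher at 52 weeks (1.04%) and 22 lower (2.09%). Among macrophage-dominated members 6 of 656 were called higher (0.915%) and 21 lower (3.2%). The 2 sets of calls shared 6 genes, 6 of 33 and 6 of 27, namely Ccl7, Ccl12, Tnf, Fxyd2, Ifih1 and Lgals7. The keratins Krt5 and Krt14, which the split reads, were also called in the subset. Keratinocyte markers summed there to 3802 and 2443 CPM in the 8-week libraries and to 1209 CPM in the 52-week untreated one. The part of keratinocyte RNA in the falls of the subset was not tested. Of 27 inflammatory genes 25 were tested in all members, with 3 lower (Ccl7, Ccl12 and Tnf), Il6 higher, 23 negative changes and a median of -0.95 against 0.08 over all genes. In the subset 23 were tested, 7 were lower and the median was -1.17 against 0.04. The chemokines Ccl2, Ccl3, Ccl4 and Ccl5 joined the called genes there, at -2.16, -1.67, -1.54 and -2.38. In all members these 4 stood at -1.52, -1.67, -1.67 and -1.62, with adjusted p from 0.0509 to 0.0817. Fxyd2 fell by 2.54 ± 0.54 on the log2 scale (adjusted p = 0.00489), and Ifih1, a sensor of viral RNA, by 1.84 ± 0.53 (adjusted p = 0.0478). The keratinocyte gene Lgals7 fell by 2.27 ± 0.49 (adjusted p = 0.00585).

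Genes of MHC class II, which presents antigen to T cells, fell at 52 weeks in all members. Cd74 was at 8313, 4124, 5367, 1849, 441 and 1031 CPM, a change of -2.92 ± 0.55 (adjusted p = 0.00124), and H2-Eb1, H2-Ab1 and H2-Aa changed by -3.11, -2.60 and -2.20. The 52-week values were the lowest for Cd74. Of 10 class II genes 5 were tested, 4 were called lower and the median was -2.60. Over all genes tested 2.09% were called lower and the median was 0.08. Among macrophage-dominated members 0 were called, with Cd74 at -2.35 ± 0.76 (adjusted p = 0.108). Without cells that held 5 or more keratinocyte and fibroblast marker UMIs, all 4 turned direction, with Cd74 at 0.60 (adjusted p = 0.556), H2-Eb1 at 1.99 (0.369), H2-Ab1 at 2.55 (0.236) and H2-Aa at 1.43 (0.375). The single cells with 350 and 264 Cd74 UMIs described above are part of these sums. Langerhans cell markers (Epcam, Mfge8 and Ltc4s, with Cd207 at 0 by the rule) summed to 3385, 349, 511, 254, 154 and 335 CPM and dendritic cell markers to 59.4, 0, 114, 0, 4.05 and 32.2 CPM. Their part in the class II falls was not tested. Ppbp, a platelet chemokine gene of the same family as Pf4, fell by 4.004 ± 0.74 (adjusted p = 0.00124) on the log2 scale and stood at -3.71 ± 1.07 (adjusted p = 0.0835) in the subset. Clec4n, a fungal pattern receptor, fell by 3.03 ± 0.71 (adjusted p = 0.00867).

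Spp1, osteopontin, rose with age. It counted 13, 8, 1, 23, 376 and 216 UMIs, or 154, 280, 14.2, 531, 1523 and 696 CPM, highest in both 52-week libraries. The change was 2.56 ± 0.72 (adjusted p = 0.0427), and 2.44 ± 0.92 (adjusted p = 0.138) in the macrophage-dominated members, which held 372 and 206 of its 52-week UMIs. Fibroblast and acute-phase genes were called higher too, as was Il1rl1, whose UMIs are given above. Dcn counted 10, 0, 9, 33, 137 and 597 UMIs, of which 11 and 25 at 52 weeks were in macrophage-dominated members, whose choice reads Dcn. Saa3 had 464 and 897 UMIs at 52 weeks and 18 and 35 in that subset, Il6 118 and 142 against 20 and 10. Cxcl5 rose by 2.14 ± 0.49 (adjusted p = 0.00777) in all members and stood at -1.24 (adjusted p = 0.18), the opposite direction, in the subset. The falls included the keratinocyte genes 2610528A11Rik, Calm4, Ly6d and Fxyd3, each at least 21.1 times as high in other cells as in members in some library.

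Within the macrophage-dominated members, Ctsd, Litaf, Rps21, Rpl9 and Rpl10 were among the 6 genes called higher at 52 weeks, named here after their values were seen. Ctsd, the lysosomal protease cathepsin D, was at 815, 1527, 906, 1622, 2730 and 3186 CPM, a change of 1.33 ± 0.27 (adjusted p = 0.0443). Both 52-week libraries were above all others. Litaf, an endosomal protein, rose by 1.65 ± 0.36 (adjusted p = 0.0459), and Rps21, Rpl9 and Rpl10, which encode ribosomal proteins, by 1.30, 1.29 and 1.17. In all members none of these genes was called. Of 22 lysosomal genes 17 were tested and Ctsd was the one called, with a median of 0.33 against 0.04. Of 22 early-response genes 15 were tested in the subset, Ier3 (-1.29) and Zfp36 (-1.31) were called lower, 9 were negative and the median was -0.31 against 0.04. Of 13 heat shock genes 5 were tested and Hspa1b (-2.01) was called lower, with a median of -0.18 against 0.04. The adjusted p of these 3 ran from 0.0378 to 0.0421. Plaur, the urokinase receptor, and Areg, an epidermal growth factor ligand, changed by -1.87 and -2.76 (adjusted p = 0.0448 and 0.0421). In cells thinned to 500 UMIs before the rule was applied, which are not the same cells as the members, Ctsd stood at 0.65 (adjusted p = 0.56). Ier3 stood at -0.25 there (adjusted p = 0.846).

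**Figure D5:**
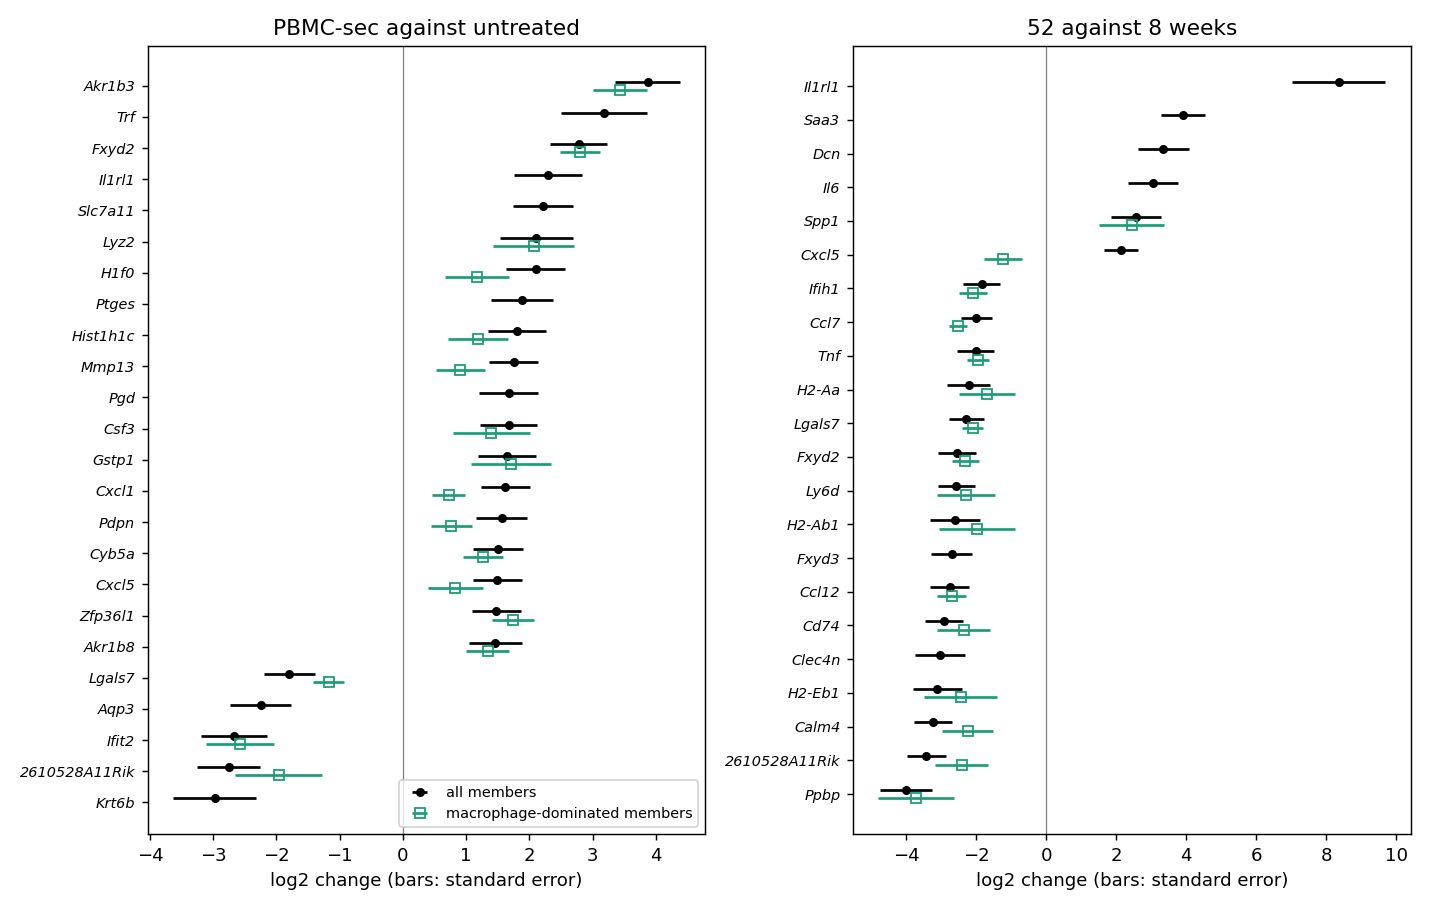
Log2 change with standard error of the named genes, for PBMC-sec against untreated (left) and 52 against 8 weeks (right), in all members (black) and in macrophage-dominated members (green, where tested). Akr1b3 and Fxyd2 have nearly the same change in both sets, Cxcl5 lies on opposite sides of 0 in the age comparison, and genes without a green mark, such as Slc7a11, were too low to test in the subset.

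With PBMC-sec 15 of 23 lists had 0 called genes in all members, with medians from -0.45 to 0.34, and between ages 18 lists, with medians from -0.68 to 0.55. The list with the iron carrier Trf as its 1 called gene had its abundant members, the ferritins Fth1 and Ftl1, at 0.61 ± 0.40 and 0.35 ± 0.41 with PBMC-sec. Lipid genes of foam-type macrophages, 11 tested of 21, had medians of 0.34 with PBMC-sec and 0.30 with age, Spp1 alone being called, and oxidative phosphorylation genes, 17 tested of 19, -0.15 and 0.31.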

How the data were processed

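Single-cell RNA was measured in 6 libraries of whole mouse dorsal skin, 1 per age and treatment, each pooling 3 animals, so replicates of a condition do not exist here. The deposited values are raw UMI counts per gene and barcode, made by the authors with Cell Ranger 5.0.1, per the file headers, on mm10 (GRCm38), per the submitters' processing notes. Filters applied by the authors before deposit and the annotation release are not given in the sources used here. Other deposited files hold gene and barcode names.

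Barcodes were kept from 500 UMIs and 300 detected genes upward if mitochondrial UMIs stayed within 10%. The members and the gene lists were chosen with earlier results of these data known. Counts were summed over members per library and tested with edgeR 4.0.16 (R 4.3.3; TMM, filterByExpr, quasi-likelihood test, age and treatment as terms, Benjamini-Hochberg adjustment over all genes tested, threshold 0.05), leaving out the 12 genes the rule reads. DESeq2 1.42.0 was an alternative. Interaction tests used 1 fit over both sets of cells with library as a term. The fits were tested on simulated data. Scrublet (scanpy 1.11.5) scores were used to remove 0.8% of barcodes per 1000 barcodes as an alternative, as its automatic threshold marked 1 barcode. Genes were named by rule. Up to 15 called genes per direction were taken by largest change. They needed at least 1 UMI in every library and a level in other cells at most 5 times that in members. Up to 5 other called genes per direction and the called or most abundant members of each list were also named. The split into macrophage-dominated and remaining members, the limit to members with a C1q or Mrc1 UMI and the removal of cells of 10000 UMIs or more were chosen after seeing the data. Promoters are from RefSeq on GRCm38.p6. Of 429 list genes, 2 are not analysed here. Some called genes, part of the counts over all genes, are not reported here.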

Additional observations from a re-analysis of the deposited data

Results flagged for a closer look

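Cd74 differed in direction between ages. The log2 ratio of PBMC-sec to untreated was -1.01 in the 8-week, -1.54 in the 26-week and 1.22 in the 52-week libraries, and the difference between ages was not tested. H2-Ab1 behaved alike, at -1.997, -1.50 and 2.34, also untested. In the 52-week PBMC-sec library 1 cell held 264 of the 320 Cd74 UMIs and 89 of the 102 H2-Ab1 UMIs were in a single cell.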

How the results depend on the processing

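The number of genes called with PBMC-sec, 32, became 11 at a UMI sum of at least 10, 6 with no limit on Il1b, 9 after thinning, 13 without cells with 5 or more keratinocyte and fibroblast marker UMIs, 1 with no age term and 14 by DESeq2. It was 7 among members with a C1q or Mrc1 UMI, 3 without cells of 10000 UMIs or more and 2 in macrophage-dominated members, and 10 to 42 when 1 age was left out. The 33 calls between ages became 0 with no limit on Il1b, 1 after thinning, 51 without cells rich in keratinocyte and fibroblast markers, 1 without cells of 10000 UMIs or more and 21 by DESeq2, with 46 when the 26-week pair was left out. Against all other cells, 1 call became 29 with no filter on low counts, 9 by DESeq2 and 0 to 4 when 1 age was left out. Against Il1b-high cells, 0 became 12 with no filter and 0 to 2 when 1 age was left out. The mean log2 share difference, -0.61, was 0.0184 with no limit on Il1b. It was -0.0362 without cells rich in other markers, which were taken out of the members and not out of all kept cells. Among members with a C1q or Mrc1 UMI it was -1.05, and without near-identical barcodes -0.82. After thinning it was -0.15, and in the other settings it ran from -0.75 to -0.49. The untreated 52-to-8-week ratio, 4.57, was 3.02 without near-identical barcodes. Between ages, Cxcl5 stood at -0.96 without cells rich in other markers, -0.0359 without cells of 10000 UMIs or more and -1.24 in macrophage-dominated members. Without cells rich in other markers H2-Eb1 stood at 1.99, Cd74 at 0.60, H2-Ab1 at 2.55 and H2-Aa at 1.43, and Tnf stood at 0.0916 after thinning. The cause was not tested. Over the named genes and settings, 144 PBMC-sec values kept direction and call, 183 kept direction alone and 0 reversed. Between ages the numbers were 153, 83 and 8. Named genes that were too low to test in a setting, or had no adjusted p there, are not in these counts. The replicate number is the same in all libraries, so it could not serve as a block. The age term already sets treated against untreated within an age. Leaving out the 8-week or 52-week pair gave no age contrast. Members summed to 28614 to 84203 UMIs at 8 and 26 weeks, and the smallest detectable change was not measured.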
